A study of Mus musculus with 54 samples.

Results

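The genes described here are 10 microglial activation genes, Clec7a, Lgals3, Cst7, Itgax, Cd68, Cd52, Trem2, Tyrobp, Axl and Csf1r. They were chosen by symbol, as every probe set annotated to one of these genes alone, which gave 14 probe sets of the 45037 tested and 10 of the 18193 genes with a probe set of their own. A probe set is a group of short DNA probes on the array that report the RNA of one transcript as a log2 signal, so that a difference of 1 is a 2-fold difference in signal. Where a gene had more than 1 probe set, the brightest over all arrays led, and the others are given beside it. Signals of different probe sets were not set against each other.

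Microglia are the resident macrophages of the brain. Csf1r is the receptor through which the ligands Csf1 and Il34 keep them alive, and Tyrobp is the adaptor protein that passes on the signal of Trem2, a receptor for lipids and cell debris. Clec7a (Dectin-1, a receptor for fungal glucans), Itgax (the integrin CD11c), Cst7 (cystatin F, an inhibitor of lysosomal cathepsins) and Lgals3 (galectin-3, a lectin that binds sugars on damaged membranes) are low in resting microglia and are known to be raised near plaques, in white matter and in old brains. Cd68 is a lysosomal membrane protein, Cd52 a small glycoprotein anchored in the membrane of leukocytes, and Axl a receptor tyrosine kinase that helps to take up dying cells.

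The study compared RNA extracts of striatum, brainstem/midbrain and cerebellum on 54 arrays, 22 from wild-type mice (WT, strain FVB/N), 17 from the PrPmtA line and 15 from the PrPmtB line. PrPmtA and PrPmtB are independent transgenic lines on the FVB/N background in which the prion protein promoter, which is active in neurons, drives human alpha-synuclein with the A53T mutation. Young mice were 6 months old, with 1 female and 1 male array for each line and region (n = 2 per group, 18 arrays). Old WT mice were 20, 22, 26 or 28 months old (n = 4 in striatum, 6 in brainstem/midbrain and 6 in cerebellum), old PrPmtA mice 21, 26 or 28 months (n = 2, 4 and 5; 26 and 28 months only in striatum) and old PrPmtB mice 20 or 22 months (n = 2, 3 and 4). The arrays at 21 and 22 months were female, those at 26 months male, those at 28 months female and those at 20 months of mixed sex.

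All young arrays belonged to the first of 3 array sets and all old arrays to the other two, so age and array set cannot be told apart. Arrays of different regions shared codes, but nothing says that they came from the same mouse, and p-values measure the spread between these arrays, which may be technical in part. In RNA of whole tissue, more cells of a type and more RNA per cell cannot be told apart. Each array's median log2 signal lay between 3.38 and 3.63. The arrays carried the markers of their labelled regions: the mean log2 signal of 6 striatal genes was 11.3 to 11.9 in striatum and at most 7.39 elsewhere, that of 8 brainstem/midbrain genes was 4.57 to 7.74 there and at most 3.83 elsewhere, and that of 6 cerebellar genes was 13.3 to 13.5 in cerebellum and at most 9.53 elsewhere. The 3 arrays from WT mice at 28 months were 1 per region with 1 shared code. They stood above the other old arrays for most of these genes. Age results that rest on them are therefore given with and without them, but correlations with them only. The 3 PrPmtA arrays at 28 months, labelled female, had a log2 signal of 6.01 to 7.02 for the Y-linked gene Eif2s3y, against 2.76 to 3.23 on the 30 other female arrays. For the female marker Xist they gave 8.2 to 10, against 9.5 to 11.6 on the other female arrays and 1.9 to 4.29 on the 15 male arrays. The cause of this double signal was not tested. Without these 3 arrays, 1 of the 90 age comparisons below changed its call.

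The promoters of 3 of the activation genes are shown as examples of genes that are low in resting microglia. Clec7a was called higher in every comparison, and Cst7 and Itgax in none. Each line gives the 250 bases before the RefSeq start of the gene, from build GRCm38.p6, read 5′ to 3′ on the strand of the gene. Capitals mark matches, on either strand, to GAGGAA (the core bound by PU.1, the factor that specifies macrophages), TGANTCA (AP-1) or CACGTG (an E-box). Clec7a lies at chr6:129472780-129473029 on the minus strand, Cst7 at chr2:150570165-150570414 on the plus strand and Itgax at chr7:128129300-128129549 on the plus strand.
Clec7a: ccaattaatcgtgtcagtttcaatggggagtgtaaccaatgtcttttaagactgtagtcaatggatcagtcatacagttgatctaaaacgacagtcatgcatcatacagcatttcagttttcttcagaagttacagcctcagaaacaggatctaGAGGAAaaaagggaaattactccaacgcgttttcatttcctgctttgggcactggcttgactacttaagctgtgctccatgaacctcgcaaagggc
Cst7: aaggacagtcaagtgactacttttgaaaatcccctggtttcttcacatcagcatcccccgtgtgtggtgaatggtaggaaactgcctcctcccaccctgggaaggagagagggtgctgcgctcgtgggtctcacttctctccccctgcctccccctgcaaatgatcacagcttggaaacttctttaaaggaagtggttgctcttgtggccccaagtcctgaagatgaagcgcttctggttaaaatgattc
Itgax: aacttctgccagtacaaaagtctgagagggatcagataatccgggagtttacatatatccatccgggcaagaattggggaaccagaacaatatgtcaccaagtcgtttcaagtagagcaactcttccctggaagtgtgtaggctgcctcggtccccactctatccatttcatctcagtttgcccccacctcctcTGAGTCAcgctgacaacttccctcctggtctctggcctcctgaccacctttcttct
The Clec7a window held 1 GAGGAA match, 96 bases before the start. The Itgax window held 1 TGANTCA match, 56 bases before the start, and the Cst7 window none of the 3 motifs. Of 32851 promoters of the same length, 23.3% held GAGGAA, 6.75% TGANTCA and 6.02% CACGTG. These matches describe letters in the windows only.

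Clec7a rose with age in every line and region, by 4.43- to 14.1-fold. In young striatum its log2 signal was 3.04 and 3.00 on the WT arrays, 3.01 and 3.00 on the PrPmtA arrays and 3.03 and 3.00 on the PrPmtB arrays. In old striatum it was 6.72, 5.41, 8.26 and 4.86 on the WT arrays, 6.95 and 5.37 on the PrPmtA arrays, and 6.38 and 5.31 on the PrPmtB arrays. Every old array was above every young one, and the highest was the WT array at 28 months. In brainstem/midbrain the 6 young arrays had a lowest, median and highest log2 signal of 2.96, 2.99 and 3.85, and the 13 old arrays 5.18, 6.58 and 9.24. In cerebellum the 6 young arrays ran from 2.97 over 3.00 to 3.23, and the 15 old arrays from 4.70 over 5.41 to 7.72. No region had an overlap between ages, and all 36 old arrays lay above the highest of the 18 young ones. By limma, the log2 difference between old and young WT was 3.29 ± 0.80 (SE) in striatum (adjusted p = 0.000874), 3.47 ± 0.75 in brainstem/midbrain (adjusted p = 0.000955) and 2.75 ± 0.75 in cerebellum (adjusted p = 0.00278). In PrPmtA it was 3.16, 3.81 and 2.15, and in PrPmtB 2.83, 3.55 and 2.64. Most young Clec7a signals lay below the array medians, and whether they were above background is not given in the sources used here.

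Lgals3 rose as widely, by 3.62- to 12.8-fold. Its log2 signal in brainstem/midbrain had a lowest, median and highest value of 3.07, 3.98 and 4.42 on the 6 young arrays and of 5.30, 7.04 and 9.66 on the 13 old arrays. In cerebellum these values were 2.71, 3.88 and 4.12 for the young and 5.59, 6.25 and 8.78 for the old arrays. All 36 old arrays again lay above all 18 young arrays. The WT log2 difference was 1.86 ± 0.89 in striatum, 3.68 ± 0.84 in brainstem/midbrain and 2.94 ± 0.84 in cerebellum (limma adjusted p = 0.0990, 0.00157 and 0.00401). The striatal value rested on the array at 28 months: without it the difference was 1.15 and no longer called. In PrPmtB striatum the difference of 2.20 was no longer called without young replicate 1 (1.83) or old replicate 1 (1.63).

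Cst7 and Itgax were high on some old arrays only, and neither passed the test in any of the 9 comparisons. In old striatum the log2 signal of Cst7 was 2.84, 2.93, 6.15 and 2.48 on the WT arrays at 22, 20, 28 and 26 months, 4.06 and 3.22 on the PrPmtA arrays, and 4.16 and 2.79 on the PrPmtB arrays, against 2.38 to 2.54 on the 6 young arrays. In brainstem/midbrain the 13 old arrays ran from 2.64 over 3.88 to 6.98, all above the young range of 2.33 to 2.61. In cerebellum the WT array at 28 months gave 5.25 while the 14 other old arrays gave 2.47 to 3.43, which overlapped the young range of 2.35 to 2.68. Over all regions, 26 of the 36 old arrays lay above the highest young array. The log2 difference between ages was 0.13 to 1.52 over the 9 comparisons, with 1.52 ± 0.79 in WT brainstem/midbrain (limma adjusted p = 0.136).

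Itgax followed a like course. The WT arrays at 28 months gave a log2 signal of 5.73 in striatum, 5.36 in brainstem/midbrain and 4.46 in cerebellum. The other old arrays gave 2.25 to 3.82 in striatum, 2.37 to 4.03 in brainstem/midbrain and 2.22 to 3.99 in cerebellum, and the young arrays 2.10 to 2.38 over all regions. In brainstem/midbrain all 13 old arrays lay above the 6 young arrays, while 4 of 8 did so in striatum and 12 of 15 in cerebellum. Log2 differences between ages were 0.385 to 1.12. Without the WT arrays at 28 months, a setting chosen after seeing the data, the spread between old arrays was smaller and both genes gave calls. Cst7 was then higher in PrPmtA striatum (1.11, limma adjusted p = 0.156) and in brainstem/midbrain of WT (0.93, 0.109), PrPmtA (1.48, 0.0277) and PrPmtB (1.39, 0.0790). Itgax was then higher in brainstem/midbrain of PrPmtA (1.12) and PrPmtB (1.03) and in PrPmtB cerebellum (0.88). The WT differences in striatum became 0.31 for Cst7 and 0.23 for Itgax.

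**Figure D1:**
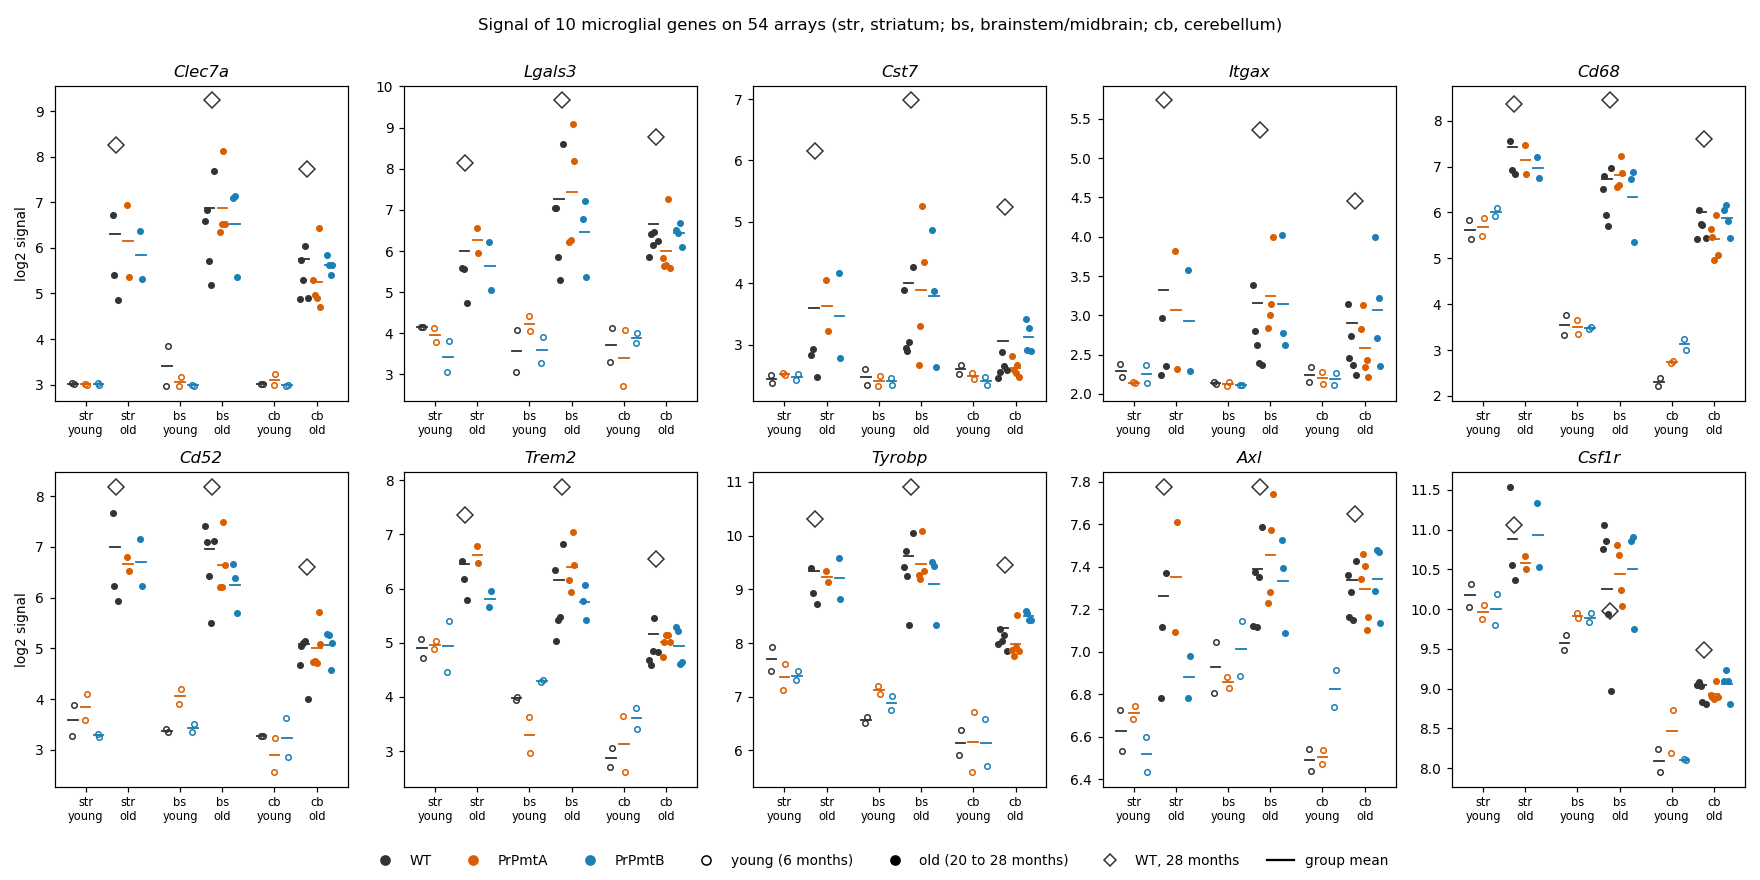
Log2 signal (vertical axes) of the leading probe set of each of the 10 genes on the 54 arrays, by region and age, with lines in different colours and the WT arrays at 28 months marked. For Clec7a and Lgals3 all 36 old arrays lie above the 18 young arrays, for Cst7 and Itgax 26 of 36 do, and the marked arrays are the highest in 28 of the 30 combinations of gene and region.

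Cd68, the lysosomal gene, rose in all 9 comparisons, least in striatum, where its young signal was highest. Its log2 signal was 5.41 to 6.10 on the 6 young and 6.74 to 8.36 on the 8 old striatal arrays, with no overlap. In brainstem/midbrain it was 3.33 to 3.77 on young and 5.35 to 8.44 on old arrays, and in cerebellum 2.21 to 3.23 on young and 4.96 to 7.6 on old arrays. Ages did not overlap in either region. WT log2 differences were 1.80 ± 0.51, 3.18 ± 0.48 and 3.70 ± 0.48 in striatum, brainstem/midbrain and cerebellum (limma adjusted p = 0.00397, 7.53e-06 and 4.05e-07). In PrPmtB striatum the difference was 0.97 ± 0.59 (adjusted p = 0.222), and the call was lost without young replicate 1 (0.88), young replicate 2 (1.06) or old replicate 1 (0.73).

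Cd52 rose in all 9 comparisons with an adjusted p under 0.05 in each. Its log2 signal was 3.26 to 4.09 on young and 5.94 to 8.17 on old striatal arrays, 3.35 to 4.20 and 5.51 to 8.19 in brainstem/midbrain, and 2.56 to 3.63 and 3.99 to 6.61 in cerebellum. Ages did not overlap within any region. The differences were 3.42, 2.82 and 3.40 in striatum of WT, PrPmtA and PrPmtB, 3.58, 2.58 and 2.82 in brainstem/midbrain, and 1.82, 2.10 and 1.82 in cerebellum.

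Axl rose in all 9 comparisons by small amounts, 0.320 to 0.848 on the log2 scale or 1.25- to 1.80-fold, at a log2 signal of 6.43 to 7.15 in young and 6.78 to 7.78 in old tissue. In striatum and cerebellum ages did not overlap, while 3 of 13 old brainstem/midbrain arrays lay within the young range. The largest difference was in WT cerebellum (0.85 ± 0.18, limma adjusted p = 0.000181). Of the striatal and brainstem/midbrain calls, several depended on 1 array: PrPmtA striatum gave 0.38 without old replicate 2, PrPmtB striatum 0.28 and 0.27 without young replicate 2 or old replicate 2, and WT brainstem/midbrain 0.34 without young replicate 1. In PrPmtB brainstem/midbrain the call was lost without young replicate 1 (0.19), old replicate 1 (0.23) or old replicate 2 (0.29). The other Axl probe set, at a log2 signal of 2.43 to 2.75, ran the other way and was called lower in 7 comparisons, with differences down to -0.202.

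Trem2 rose in 8 of 9 comparisons. Its log2 signal was 4.47 to 5.39 on young and 5.65 to 7.36 on old arrays in striatum, 2.97 to 4.32 and 5.02 to 7.88 in brainstem/midbrain, and 2.61 to 3.79 and 4.59 to 6.55 in cerebellum, with no overlap within a region. The largest difference was in PrPmtA brainstem/midbrain (3.09 ± 0.51, limma adjusted p = 3.08e-05). The comparison that did not pass was PrPmtB striatum (0.88 ± 0.59, adjusted p = 0.274), and it was called without young replicate 2 (1.34). The other Trem2 probe set stayed at a log2 signal of 2.72 to 3.56 in both ages and was called in none of the 9 comparisons.

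Tyrobp, the adaptor of Trem2, rose in all 9 comparisons with an adjusted p under 0.05 in each, by 3.11- to 8.25-fold. In striatum the log2 signal of the young arrays was 7.48 and 7.93 (WT), 7.12 and 7.61 (PrPmtA), and 7.31 and 7.48 (PrPmtB). The old arrays gave 9.40, 8.93, 10.31 and 8.73 (WT), 9.33 and 9.13 (PrPmtA), and 9.59 and 8.82 (PrPmtB). In brainstem/midbrain the young arrays ran from 6.5 over 6.88 to 7.21 and the old from 8.33 over 9.42 to 10.91, and in cerebellum from 5.59 over 6.15 to 6.71 and from 7.75 over 8.15 to 9.45. Ages did not overlap in any region. The differences were 1.64, 1.86 and 1.81 in striatum of WT, PrPmtA and PrPmtB, 3.04, 2.34 and 2.22 in brainstem/midbrain, and 2.14, 1.83 and 2.35 in cerebellum.

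Csf1r, the survival receptor, rose in some comparisons only. Its leading probe set was called higher in 6 of 9 comparisons, by differences of 0.471 to 0.953 over all 9, and had an adjusted p under 0.05 in WT cerebellum only (0.95 ± 0.34, limma adjusted p = 0.0197). In old WT brainstem/midbrain its log2 signal was 10.76, 11.06 and 10.85 at 22 months, 9.94 at 20, 9.98 at 28 and 8.96 at 26 months, against 9.48 to 9.95 on the 6 young arrays of that region. The array at 26 months lay below the young range, and those at 22 months, which were in the second array set, lay above it. In striatum all 8 old arrays (10.37 to 11.54) lay above the young ones (9.80 to 10.32), and in cerebellum all 15 (8.80 to 9.49 against 7.95 to 8.74). The calls of this probe set rested on single arrays in 4 comparisons. WT striatum was not called without young replicate 1 (0.56) or old replicate 1 (0.49), PrPmtB striatum without young replicate 1 (0.74) or old replicate 1 (0.53), and WT brainstem/midbrain without young replicate 1 (0.58). PrPmtB brainstem/midbrain was not called without young replicate 1 (0.55), young replicate 2 (0.67), old replicate 1 (0.43) or old replicate 2 (0.41), and gave 0.99 without old replicate 3. PrPmtA brainstem/midbrain, without old replicate 4 (0.66), and PrPmtA cerebellum, without young replicate 2 (0.74), were called. Both other Csf1r probe sets were called higher in all 9 comparisons, by 0.497 to 1.57 and by 0.462 to 1.53.

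Counted together, 7 or 8 of the 10 genes were called higher with age in each line and region, and none was called lower. A call means that limma's nested F procedure at a false discovery rate of 0.05 held the comparison, whereas the adjusted p printed beside a value is that of the comparison alone, so a call can stand beside an adjusted p above 0.05. Of the 90 values, 68 were called and 48 had an adjusted p under 0.05, where 5.80% of values of all probe sets were higher with such a p. In striatum 8, 7 and 7 genes were called in WT, PrPmtA and PrPmtB, where 9.07%, 7.07% and 8.95% of all probe sets were called higher. In brainstem/midbrain 8, 7 and 8 were called, against 10.6%, 10.2% and 8.25%, and in cerebellum 8, 7 and 8, against 10.8%, 9.70% and 6.98%. Over the 9 comparisons, 24.8% of values of all probe sets were called lower. In WT striatum 17.3% of the brighter probe sets, the 22518 of highest mean signal, were called higher, and 8 of the 10 genes, all but Cst7 and Itgax, belonged to these. The median difference of the 10 genes was 0.979 to 2.62, while that of all probe sets was -0.0976 to 0.00854. By the adjusted p alone, 3, 4 and 4 genes passed in the 3 regions of PrPmtB, and 3 in PrPmtA striatum. Without the WT arrays at 28 months 75 of the 90 values were called higher, against 8.88% of values of all probe sets.

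**Figure D2:**
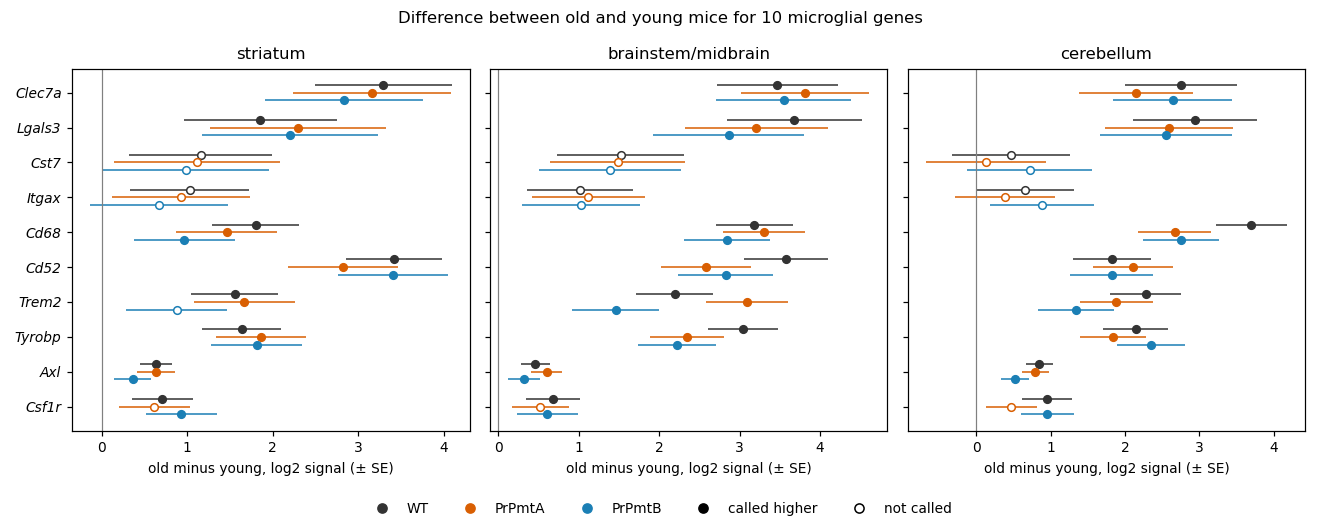
Old minus young log2 difference (horizontal axis, point with bar of 1 SE) of each gene's leading probe set in the 9 combinations of line and region, with called values filled. Clec7a, Lgals3, Cd68, Cd52, Tyrobp and Axl are called in all 9, Trem2 in 8, Csf1r in 6, and Cst7 and Itgax in none.

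The activation genes Clec7a, Lgals3, Cst7 and Itgax were then set against Tyrobp and Csf1r, the genes that all microglia use. With the leading probe sets and all arrays, the median age difference of the 4 activation genes exceeded that of the 2 general genes in each comparison, with 1.51 against 1.17 in WT striatum, 2.50 against 1.86 in WT brainstem/midbrain and 1.70 against 1.55 in WT cerebellum. In PrPmtA these were 1.71 against 1.24, 2.34 against 1.43 and 1.27 against 1.15, and in PrPmtB 1.60 against 1.37, 2.13 against 1.41 and 1.72 against 1.65. The order did not hold under every setting. Without the WT arrays at 28 months it turned in WT striatum (0.727 against 0.982) and WT cerebellum (1.35 against 1.39), and it stayed in WT brainstem/midbrain (1.96 against 1.76). With the second Csf1r probe set by brightness it turned in cerebellum of WT (1.70 against 1.86), PrPmtA (1.27 against 1.62) and PrPmtB (1.72 against 1.96), and with the third in the same 3 comparisons (1.83, 1.53 and 1.93 for the general genes). It also turned in 2 of 9 comparisons with old arrays of the third set only and in 4 of 8 with the second set only. These are medians of few genes, no test was made of them, and the groups within them overlapped: Cst7 and Itgax had smaller differences than Tyrobp in all regions.

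Array by array, the contrast was widest on few arrays. The mean log2 signal of the activation genes minus that of the general genes has no meaning as a level, but can be set between arrays of 1 region. In striatum it was -6.19 to -5.54 on the 6 young arrays, -3.62 on the WT array at 28 months, -4.65 on the PrPmtA array at 28 months and -6.12 to -5.38 on the 6 other old arrays. In brainstem/midbrain it was -5.65 to -5.05 on young arrays, -2.64 and -3.76 on the WT and PrPmtA arrays at 28 months, -3.77 and -3.93 on those at 26 months and -5.78 to -4.49 on the 9 arrays at 20 to 22 months. In cerebellum it was -4.75 to -4.01 when young, -2.92 on the WT array at 28 months and -4.62 to -3.90 on the 14 other old arrays. Of the 24 arrays at 20 to 22 months 16 lay within the young range of their region and 7 above it, and of the 6 arrays at 28 months 5 lay above it. Of the 6 at 26 months, both brainstem/midbrain arrays lay above it and the other 4 within it. With either other Csf1r probe set the same number of arrays at 28 months lay above the young range, but 13 of those at 20 to 22 months lay within it, and 7 or 6, all in cerebellum, below it.

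**Figure D3:**
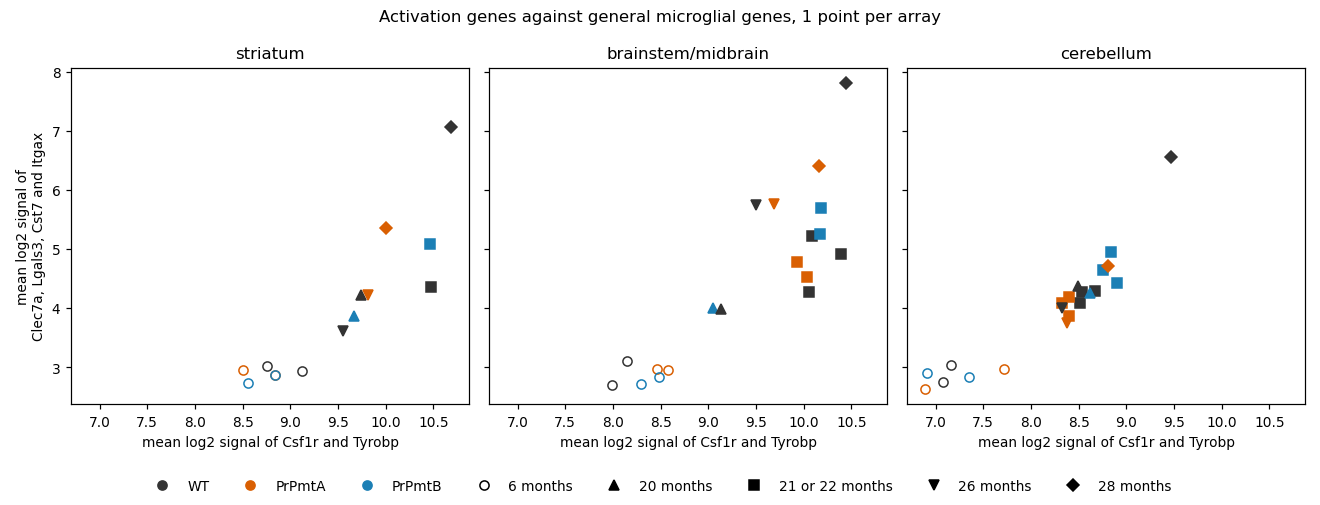
Mean log2 signal of Clec7a, Lgals3, Cst7 and Itgax (vertical axis) against the mean log2 signal of Tyrobp and Csf1r (horizontal axis), by their leading probe sets, 1 point per array, by region and age. Old arrays lie above and to the right of young arrays, and the WT arrays at 28 months lie highest in all 3 regions.

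The WT arrays at 28 months were the highest of all old arrays in 28 of the 30 combinations of gene and region, the exceptions being Csf1r in striatum (11.06, rank 3 of 8) and in brainstem/midbrain (9.98, rank 10 of 13). They exceeded the median of the other old arrays by 2.37 to 2.85 on the log2 scale for Clec7a, 2.54 to 2.75 for Lgals3, 2.58 to 3.38 for Cst7 and 1.88 to 3.37 for Itgax. For Tyrobp this was 1.18 to 1.53, for Trem2 1.19 to 1.88 and for Axl 0.334 to 0.683. The PrPmtA arrays at 28 months were next for Clec7a, with 6.95, 8.13 and 6.44 in striatum, brainstem/midbrain and cerebellum. At 26 months Clec7a was 4.86, 7.70 and 4.90 in WT and 5.37, 6.52 and 4.70 in PrPmtA, which lay within or below the range of the arrays at 20 to 22 months except in WT brainstem/midbrain.

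Within old WT, 16 arrays allowed a test of 26 and 28 months against 20 and 22 months, with region as a term, and none of the 10 genes passed it. By limma, 0.346% of all probe sets did. An unadjusted p under 0.05 was reached by 7 of the 14 probe sets of these genes (6 of the 10 genes by the leading one) and by 25.5% of all probe sets. The log2 difference was 1.24 for Clec7a, 1.66 for Lgals3, 1.71 for Cst7 and -0.46 for Csf1r (limma adjusted p = 0.212, 0.184, 0.185 and 0.229). The WT arrays at 22 months were in the second array set and those at 20, 26 and 28 months in the third. Month and array set could thus not be fully told apart. With array set as a term the differences were 1.57, 1.92, 1.74 and -0.0021. Without that term the other Csf1r probe sets gave -0.23 and 0.24. The main fit came nearest to the threshold for Axl (0.45 ± 0.08, limma adjusted p = 0.0514). Axl passed when arrays with a shared code were treated as a block (adjusted p = 0.0462). It also passed when WT cerebellum replicate 4, striatum replicate 2 or 4, or brainstem/midbrain replicate 6 was left out. Axl did not pass with array set as a term (0.39, adjusted p = 0.622), with quantile normalisation (adjusted p = 0.0546) or in the brighter probe sets (adjusted p = 0.0792). The arrays at 26 and 28 months differed among themselves. Those at 26 months were male and those at 28 months female, so month and sex cannot be told apart between them. The fits by month had no term for sex. Without the arrays at 28 months Clec7a differed by -0.06, Cst7 by 0.20, Itgax by -0.37 and Csf1r by -0.86, none of them called. Without the arrays at 26 months 8 genes passed, where 1.61% of all probe sets did, among them Cst7 (3.21, adjusted p = 0.000234), Lgals3 (2.82), Clec7a (2.53) and Itgax (2.49), but not Cd52 (1.47) or Csf1r (-0.06). Both of these settings were chosen after seeing the data, and each leaves the older class with 1 array per region. These arrays of the older class all carry 1 shared code, which neither fit treated as a block. They may come from 1 mouse, so the adjusted p-values and the count of genes passing do not show a difference replicated between mice.

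**Figure D4:**
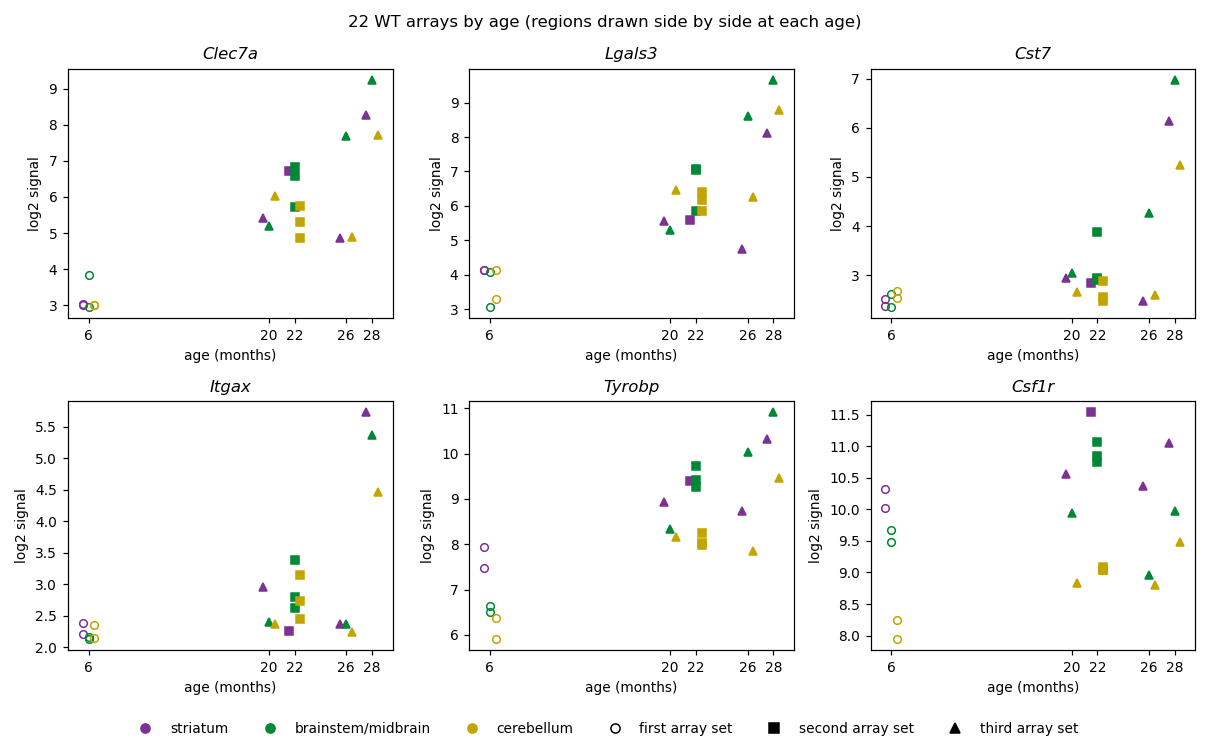
Log2 signal (vertical axes) on each WT array against age in months (horizontal axis) for Clec7a, Lgals3, Cst7, Itgax, Tyrobp and Csf1r, by region. Signals at 28 months are the highest of their region for each of these genes, except Csf1r in striatum and brainstem/midbrain, while those at 26 months lie among or below those at 20 and 22 months for Clec7a in striatum and cerebellum.

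Markers of other cells were read on the same arrays. The mean log2 signal of 8 border macrophage genes on the WT arrays at 28 months was 4.08, 4.53 and 4.41 in striatum, brainstem/midbrain and cerebellum, against 3.61 to 3.70, 3.90 to 4.45 and 3.84 to 4.26 on the other old WT arrays. Of these 8 genes 3, 2 and 2 lay above all other old WT arrays of the region, and 1, 1 and 0 below. Ms4a7 was above in all 3 regions (5.20, 7.59 and 5.50, others at most 2.87, 4.96 and 2.89), Stab1 in striatum and cerebellum (4.93 and 5.26, others at most 4.65 and 5.15), and F13a1 in striatum (4.6, others at most 4.20). Mrc1 gave 5.30, 5.55 and 6.25, within the range of the others, and Cd163 and Lyve1 gave 2.81 to 2.86. For 7 monocyte and neutrophil genes these arrays gave 2.68, 2.91 and 2.76, and for 11 lymphocyte genes 3.08, 2.88 and 2.83, of which only the lymphocyte value in striatum exceeded the other old WT arrays (2.93 to 3.06). The 8 astrocyte genes gave 11.6, 11.6 and 11.9, above the other old WT arrays (at most 10.9, 11.3 and 11.7), and the 6 choroid plexus genes gave 5.00, 5.80 and 8.19, above the others in striatum and cerebellum. The part of these markers in the results was not tested.

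Between young regions Cd68, Trem2, Tyrobp and Csf1r gave calls, while Clec7a, Lgals3, Cst7 and Itgax gave none. In young brainstem/midbrain minus striatum, averaged over lines, the log2 difference was -2.26 for Cd68 (limma adjusted p = 5.95e-07), -1.07 for Trem2 (adjusted p = 0.00636) and -0.63 for Tyrobp (adjusted p = 0.0723). These 3 of 10 genes were called lower, where 40.7% of all probe sets were. Axl alone was higher (0.31, adjusted p = 0.0305), and over the 6 comparisons between regions 21.3% of values were called higher. Young cerebellum was below striatum for 4 genes (background 35.4%), with differences of -3.05 for Cd68, -1.82 for Csf1r, -1.72 for Trem2 and -1.34 for Tyrobp, and below brainstem/midbrain for 5 (background 16.9%), led by Csf1r (-1.58). The young calls of Tyrobp and Axl between brainstem/midbrain and striatum, and those of Trem2, Tyrobp and Axl between cerebellum and brainstem/midbrain, were each lost when any of 2 to 8 single arrays was left out. The share of the 10 genes called lower was thus below or near the background of all probe sets in both comparisons with striatum. Among the brighter probe sets, 25.1% were called lower in young brainstem/midbrain than in striatum. For young cerebellum this was 26.3% against striatum and 28.9% against brainstem/midbrain. Clec7a, Lgals3, Cst7 and Itgax differed between young regions by -0.183 to 0.138 and none was called.

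In old mice, 2 genes were lower in brainstem/midbrain than in striatum (background 15.0%), Cd68 (-0.56, adjusted p = 0.149) and Csf1r (-0.40, adjusted p = 0.145). These calls were lost when any of 4 or 5 single arrays was left out, such as PrPmtB striatum old replicate 1. Axl was higher (0.23, adjusted p = 0.105), a call lost without any of 15 arrays. Old cerebellum was below striatum for 5 genes (background 25.3%), with differences of -1.78 for Csf1r, -1.73 for Cd52, -1.42 for Cd68, -1.26 for Trem2 and -1.0 for Tyrobp. It was below brainstem/midbrain for 6 (background 22.5%), the same 5 and Clec7a, with -1.21 ± 0.36 (limma adjusted p = 0.00599). The Clec7a call was lost when any of 35 of the 54 arrays was left out. Over all 54 omissions its value was -1.41 to -1.06. The other 10 cerebellar calls in old mice held with each array left out. With old arrays of the third set only, Clec7a was not called (-0.88). Nor were Cd52 and Tyrobp against striatum (-1.30 and -0.76), or Cd68, Cd52 and Tyrobp against brainstem/midbrain (-0.74, -1.31 and -0.91). The remaining cerebellar calls stayed. Lgals3 was not called between old regions. Among the brighter probe sets, 23.6% were called lower in old brainstem/midbrain than in striatum. For old cerebellum this was 27.8% against striatum and 32.7% against brainstem/midbrain.

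The age change itself differed between regions for 2 of the 10 genes. Cd68 rose more in brainstem/midbrain than in striatum, by 1.7 (95% interval 0.81 to 2.59, limma adjusted p = 0.00263), and more in cerebellum than in striatum, by 1.63 (0.76 to 2.51, adjusted p = 0.0181). Both calls held with each of the 54 arrays left out, while neither was called when the old arrays came from the third array set alone (1.65 and 1.7). Cd52 rose less in cerebellum than in striatum (difference -1.3, interval -2.26 to -0.34, adjusted p = 0.0946), a call lost without any of 21 arrays. Among all probe sets the background of such calls was 33.3% for brainstem/midbrain against striatum, 13.6% for cerebellum against striatum and 28.2% for cerebellum against brainstem/midbrain, where none of the 10 genes was called by its leading probe set. That count rested on the setting. With old arrays of the second set only, 4 genes were called. Clec7a (-1.20, limma adjusted p = 0.000513), Cd52 (-1.18, 0.000863) and Cst7 (-0.77, 0.0135) were then lower, where 19.0% of all probe sets were, and Axl higher (0.38, 0.00185), where 11.9% were. Cd52 was also called with array codes as a block (-1.08, 0.0352), with sex as a covariate (-1.10, 0.0473) and without the WT arrays at 28 months (-1.10, 0.0281). For the activation genes the intervals were wide, as for Clec7a in brainstem/midbrain against striatum (0.52, -0.88 to 1.91). The other probe sets of Csf1r rose more in cerebellum than in striatum, by 0.68 and 0.80, and more than in brainstem/midbrain, by 0.83 and 0.73.

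None of the 10 genes was called between a transgenic line and WT by any of its probe sets. Averaged over regions and ages, and by the leading probe sets, PrPmtA minus WT was -0.153 to 0.0474 and PrPmtB minus WT -0.319 to 0.0759 on the log2 scale, with none called, a smallest limma adjusted p of 0.651, and no value with an unadjusted p under 0.05. The background was 0.266% of probe sets for PrPmtA and 0.233% for PrPmtB. The difference for Clec7a was -0.15 in PrPmtA (95% interval -0.82 to 0.51) and -0.23 in PrPmtB (-0.91 to 0.44), and for Lgals3 in PrPmtB -0.32 (-1.07 to 0.43). For Axl, the gene with the least spread, it was 0.02 (-0.13 to 0.18) in PrPmtA. The third Csf1r probe set by brightness gave 0.21 in PrPmtA (0.05 to 0.37, adjusted p = 0.199), an interval above 0 that did not pass the test. Both lines were set against the same WT arrays.

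**Figure D5:**
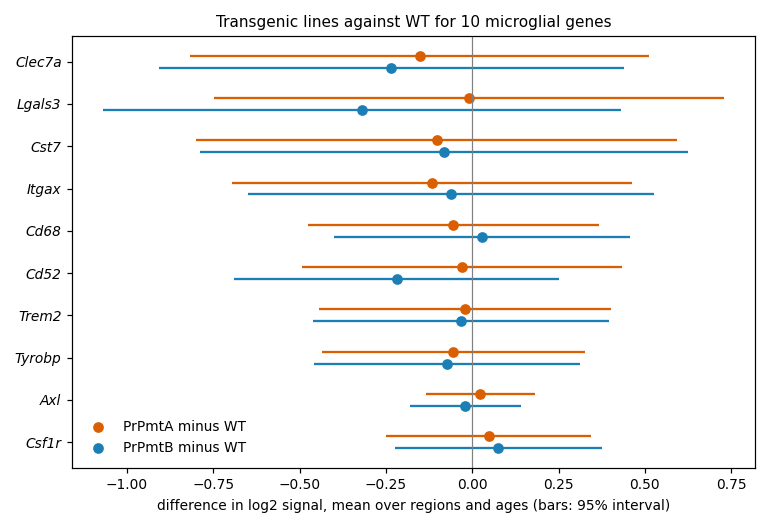
Log2 difference between each transgenic line and WT (horizontal axis) averaged over regions and ages, with the 95% interval, for the 10 genes. All 20 intervals include 0, and the estimates lie between -0.319 and 0.0759.

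Within a region and age, 0 of 120 line differences were called (-0.798 to 0.823, smallest limma adjusted p = 0.38, background 0.224%), and none had an unadjusted p under 0.05. The age change differed between a line and WT in 0 of 60 cases (-1.03 to 0.895, smallest adjusted p = 0.47, background 1.23%), again with no unadjusted p under 0.05. The ages of the old mice were not the same in the lines, as no PrPmtB mouse was older than 22 months. At 28 months Clec7a was lower in PrPmtA than in WT in all 3 regions (6.95, 8.13 and 6.44 against 8.26, 9.24 and 7.72), with 1 array each. At 20 months it was 5.31, 5.35 and 5.62 in PrPmtB and 5.41, 5.18 and 6.04 in WT. When the old arrays came from the second set only, where 4.87% of probe sets were called between PrPmtB and WT, Cst7 was higher in PrPmtB than in WT (0.47, adjusted p = 0.0311), as was the third Csf1r probe set (0.21, 0.0496). Cst7 was then also higher within old brainstem/midbrain, by 1.13 (adjusted p = 0.0910).

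Other microglial genes are given as whole lists. Beside these and the lists that follow, 6.98% to 10.8% of all probe sets were called higher with age in a comparison and 8.55% to 35.6% lower. Among the brighter probe sets 13.6% to 21.1% were called higher. Of 13 homeostatic microglial genes measured, 3 to 7 were called higher with age in a comparison and at most 1 lower. Tmem119, a marker of resident microglia, rose in all 9 (mean difference 1.12), Mertk, a receptor for dying cells related to Axl, in 8 (0.879), and Sall1, a transcription factor of resident microglia, was lower in 5 (-0.390). Of 17 genes of microglial and macrophage identity 7 to 14 were higher, led by the complement genes C1qc (2.78) and C1qa (2.07), both in all 9. The lowest was Runx1 (-0.025). Of 19 other activation and phagocytosis genes 7 to 10 were higher, led by Lyz2 (lysozyme, 3.28) and Cybb (a subunit of the phagocyte oxidase, 2.09), while Msr1 was called in none. The median of each of these lists was above 0 in every comparison (0.252 to 0.591, 0.508 to 1.55 and 0.362 to 0.836), where that of the 10 genes was 0.979 to 2.62.

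Among 14 measured partners of Trem2, Tyrobp, Csf1r and Axl, 3 to 6 rose and up to 2 fell. Pros1, a ligand of the Axl family, rose in 8 of 9 comparisons (mean 0.872) and Il34, a ligand of Csf1r, in 6 (0.844), while Malt1 fell in 4 (-0.609). Of 11 interferon response genes 3 to 5 rose, led by Ifit3 (1.01) and Ifi27 (0.809), with Irf7 in none. Of 11 antigen presentation genes 2 to 8 rose, led by Cd74 (2.11) and H2-Aa (1.93), both in 8, while Tap1 fell in 7 by small amounts at a dim signal. Of 8 border macrophage genes 0 to 2 rose, led by F13a1 (0.618, in 4), with Ms4a7 (0.542) and Lyve1 (-0.059) in none. None of the 7 monocyte and neutrophil, 11 lymphocyte, 2 erythrocyte or 6 choroid plexus genes rose in any comparison, and at most 2, 6, 1 and 0 fell. Of all probe sets, 6.98% to 10.8% were called higher in a comparison and 8.55% to 35.6% lower. The highest mean differences in these lists were -0.035 for Camp and -0.045 for Ngp, 0.098 for Ighm and -0.018 for Cd3d, -0.078 for Hba-a1, and 0.192 for Folr1 and 0.116 for Kl. The lowest were -0.476 for S100a9, -0.455 for Cd4, -0.506 for Alas2 and -0.427 for Kcne2. Many monocyte, neutrophil and lymphocyte probe sets were dim. Mean young log2 signals were 1.98 for Nkg7, 2.21 for Cd3d, 2.23 for Camp and 2.94 for Ccr2, below the array medians of 3.38 to 3.63. Those of Ighm (5.45), Cd4 (4.14), S100a8 (3.99) and Ms4a1 (3.71) lay above these medians. A lack of calls therefore does not show that such cells were absent. Of 8 astrocyte genes 2 to 5 rose and up to 2 fell. Gfap, the filament protein of astrocytes, was higher in all 9 (mean 2.87, from 1.13 to 4.12), as was Aldh1l1, a folate enzyme (0.866), while the gap junction gene Gja1 was lower in 7 (-0.285). Of 5 oligodendrocyte genes 1 to 3 rose, led by the myelin genes Mag (0.808, in 8) and Mobp (0.567, in 9), with Mbp lowest (0.060, in 1). Of 6 neuronal genes up to 2 rose and up to 3 fell, from Syt1 (0.385, called in none) and Tubb3 (0.341, higher in 2) to Rbfox3 (-0.243, in none). In lists this short, the 0 to 2 rising border macrophage or neuronal genes cannot be told from the share of all probe sets.

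Across arrays, the likeness of each gene to the mean of the 4 activation genes was described by Pearson's r. This r was taken over the 54 deviations from group means, which come from the same arrays for every gene. It was 0.912 for Cd68, 0.873 for Tyrobp, 0.828 for Cd52, 0.787 for Trem2, 0.560 for Axl and 0.0994 for Csf1r. Outside the 10 genes, and among the brighter probe sets, the most alike were Ms4a6d (0.928), Lyz1 (0.922), Lyz2 (0.886), Ch25h (0.869), Ctsh (0.869), Cybb (0.866), C1qb (0.857), Ctss (0.856), Cd48 (0.852) and Gfap (0.85). Over the 18 group means, which share age and array set, they were Cybb (0.975), P4hb (0.967), S100a1 (0.965), Tmem205 (0.960), S100a13 (0.960), Ctsh (0.959), Ctsd (0.958), Polr2f (0.957), Elob (0.957) and Atox1 (0.957). Both sets of r include the WT arrays at 28 months and were not computed without them. Those arrays gave log2 signals of 10.4, 12.2 and 10.9 for Lyz2 in striatum, brainstem/midbrain and cerebellum. The other old WT arrays gave at most 7.94, 10.4 and 9.27. How far r rests on those 3 arrays was not tested. Lyz1 and Lyz2 are near-identical genes whose probes may share RNA.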

How the data were processed

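RNA of striatum, brainstem/midbrain and cerebellum had been hybridised to Affymetrix mouse genome arrays. The authors deposited 1 table of normalised log2 signals of 45101 probe sets on 54 arrays. The labels name GCRMA and the methods RMA, which is unsettled here and could change dim signals most. Of the probe sets, 64 array controls were left out, 34958 had 1 gene, 932 several and 9211 none in the annotation used. Groups came from the sample labels. Each gene was represented by its brightest probe set by mean over all arrays.

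All 45037 probe sets were fitted with limma (version 3.58.1, R 4.3.3), with 1 mean per group of line, region and age. Contrasts of age, region, line and their differences were called with decideTests, method nestedF, at a false discovery rate of 0.05 within a family. Adjusted p-values are Benjamini-Hochberg values over all probe sets for 1 comparison. Old WT arrays were compared by month in a fit of their own. The number of arrays limits the precision. The scripts recovered known changes in simulated data with independent noise. These simulated data held no shift between array sets and no likeness between arrays of a shared code. They therefore cannot test the limits that array sets and shared codes place on the results.

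Named genes were all 10 with every probe set, the 2 of largest and 1 of smallest mean age change in each list other than region and sex markers, and the 10 most alike by each correlation. The members and lists were chosen with earlier results of these data known. Alternatives were separate calls, brighter probe sets, fits per region, quantile normalisation, sex, shared array codes as a block, single array sets, left-out arrays and other probe sets. Promoters came from RefSeq, with entries for 7 of the 10 genes.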

Additional observations from a re-analysis of the deposited data

Results flagged for a closer look

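In the 6 old groups with 4 to 6 arrays, 11 of 60 combinations of gene and group held 1 array whose gap to the nearest array was large for the range of its group. Chance flags about 1 in 20 such groups if they are independent. These genes moved together across arrays and several flags fell on the same array, so the count cannot be set against that rate. All 11 flags fell on arrays of mice at 28 months, 7 of them on WT arrays. For Cst7 the flagged arrays were WT striatum replicate 3 (log2 signal 6.15, others 2.48 to 2.93), WT brainstem/midbrain replicate 5 (6.98, others 2.91 to 4.27) and WT cerebellum replicate 5 (5.25, others 2.47 to 2.89). WT brainstem/midbrain replicate 5 stood apart for Itgax (5.36, others 2.37 to 3.38). WT cerebellum replicate 5 stood apart for Lgals3 (8.78, others 5.86 to 6.46), Cd68 (7.6, others 5.43 to 6.04) and Tyrobp (9.45, others 7.85 to 8.25).

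The other 4 flags fell on PrPmtA arrays. Brainstem/midbrain replicate 3 stood apart for Clec7a (8.13, others 6.35 to 6.52). Cerebellum replicate 4 stood apart for Lgals3 (7.27, others 5.59 to 5.83), Tyrobp (8.52, others 7.75 to 7.93) and Csf1r (9.10, others 8.87 to 8.91). These PrPmtA arrays are those labelled female with signals of both Y-linked Eif2s3y and Xist.

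The age change differed between regions by the test of the difference itself for Cd68, by 1.7 in brainstem/midbrain minus striatum and 1.63 in cerebellum minus striatum, and for Cd52, by -1.3 in cerebellum minus striatum. Of all probe sets, 33.3% were called for brainstem/midbrain minus striatum and 13.6% for cerebellum minus striatum. The Cd52 call was lost without any of 21 arrays. Neither gene was called with old arrays of the third set only.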

How the results depend on the processing

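Of the 90 age changes, the call stayed on the same side for 90 with sex as a covariate, 72 of 72 in the brighter probe sets, 84 with quantile normalisation, 88 with array codes as a block, 78 with a fit per region, 77 with old arrays of the third set only, 67 of 80 with the second set only (which holds no PrPmtA striatum), 81 without the 28-month WT arrays and 89 without the 28-month PrPmtA arrays. Leaving out 1 array kept 515 of 540. Separate calls kept 70 of 90. Another probe set of the same gene kept 13 of 36, and in 12 of the 36 a called change turned sign. The fit per region was not run for comparisons between regions or averaged over them.

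Counts of genes called higher with age moved by more than 1.5 times as follows. With separate calls they were 3 in PrPmtA striatum (7 before) and, in PrPmtB, 3 in striatum (7), 4 in brainstem/midbrain (8) and 4 in cerebellum (8). With a fit per region PrPmtB had 4 in striatum and 5 in brainstem/midbrain, and with the third set only 4 in each of its 3 regions. Leaving out 1 array gave 4 to 6 in PrPmtB striatum, lowest without young replicate 1 or old replicate 1. With the third set only, calls between regions numbered 16 (27 before) and calls of a regional difference in age change 0 (3 before). The latter numbered 7 with the other probe sets of Trem2, Axl and Csf1r. In old WT, 0 genes differed by month, 1 with array codes as a block, 0 to 1 with 1 array left out, and 8 without the 26-month arrays. In the last of these settings the older class carries 1 shared code, which was not treated as a block. That class is all female, while the arrays left out were male. With the second set only, 4 genes were called for a regional difference in age change between cerebellum and brainstem/midbrain (0 before) and Cst7 in PrPmtB minus WT (0 before) and in its old brainstem/midbrain (0 before). That set gives no total over the comparisons between regions, as it holds no PrPmtA striatum. The other counts run stayed within 1.5 times of their value.

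Signs turned for the other probe set of Trem2, with -0.32 in WT striatum, -0.15 in PrPmtA striatum, -0.34 in PrPmtB striatum, -0.11 in WT brainstem/midbrain and -0.28 in WT cerebellum. They turned for the other probe set of Axl, with -0.20, -0.11 and -0.14 in striatum of WT, PrPmtA and PrPmtB, -0.084 and -0.0098 in brainstem/midbrain of WT and PrPmtB, and -0.17, -0.078 and -0.064 in cerebellum. Csf1r gave -0.15 in PrPmtB brainstem/midbrain with the third set only, and Itgax, not called, -0.05 in WT striatum with the second set only. The cause was not tested. No paired analysis was possible because the replicate numbers follow the order of the samples and carry no pairing. Codes shared by arrays of different regions were used as a random block instead (estimated correlation 0.136), with the counts above. The signal over background of dim probe sets, such as young Cst7 and Itgax, is not given in the sources used here, which limits their fold changes.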
